A study of Mus musculus with 4 samples.

Results

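The genes described here were the cytosolic ribosomal protein genes of the mouse, and the data were the borders of topologically associating domains (TADs) near their starts. Members were taken from GENCODE release M21 on GRCm38 as all autosomal protein-coding genes named Rpl or Rps plus digits, with an optional suffix a, l, x or p. The rule found 72 genes, 43 of the large and 29 of the small ribosomal subunit, among 20807 autosomal protein-coding genes. The rule itself used names only, although the group was picked for description with earlier results of these data known. The Hi-C libraries came from AML12, an immortalized line of mouse hepatocytes, grown on dishes (2D-cultured cells) or embedded in Matrigel (3D-cultured cells). Both cultures received the same medium with insulin, transferrin, selenite and dexamethasone, and both were held at the G1/S boundary with 1 mM hydroxyurea, which the 2D-cultured cells received for 24 h and the 3D-cultured cells for 36 h. There were 4 libraries, 2 per culture. The authors combined the replicates of a culture before they called TADs, so each culture had 1 list and no spread between replicates, and both lists describe arrested cells of a single line. A TAD list holds positions and no expression, so the labelled cell type was not checked against marker genes here.

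A TAD is a stretch of chromosome whose loci contact each other more often than they contact loci beyond its borders. Each ribosome is built from ribosomal RNA and one copy of most of the ribosomal proteins, in a large subunit that forms peptide bonds and a small subunit that reads the mRNA. The genes for these proteins are scattered over almost all chromosomes, are short, and are transcribed strongly in nearly every cell, hepatocytes included, from promoters with a pyrimidine-rich start. Many carry small nucleolar RNA (snoRNA) genes in their introns, and many have left processed pseudogenes elsewhere in the genome.

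The start regions of 9 members are shown because they span the cases described below, from the starts nearest to a TAD border to the farthest one. Each runs from 40 bases before to 20 bases after the RefSeq start (GRCm38.p6), 5′ to 3′ on the strand of the gene. Capitals mark the ETS-type motif CCGGAAG and the YY1-type motif AAGATGG on either strand, and the pyrimidine motif CTTTC on the strand of the gene between 10 bases before and 20 bases after the start. CCGGAAG and AAGATGG can overlap over their shared bases.
Rpl27a, chr7:109519155-109519214, plus strand: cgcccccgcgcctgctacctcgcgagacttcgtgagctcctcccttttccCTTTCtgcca
Rpl12, chr2:32961672-32961731, plus strand: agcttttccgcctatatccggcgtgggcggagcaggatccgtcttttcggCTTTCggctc
Rps7, chr12:28635934-28635993, minus strand: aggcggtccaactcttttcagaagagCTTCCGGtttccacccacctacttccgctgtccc
Rps15a, chr7:118116128-118116187, minus strand: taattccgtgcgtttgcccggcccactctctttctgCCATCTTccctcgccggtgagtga
Rpl38, chr11:114668540-114668599, plus strand: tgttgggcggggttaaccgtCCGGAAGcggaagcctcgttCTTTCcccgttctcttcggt
Rpl37, chr15:5116573-5116632, plus strand: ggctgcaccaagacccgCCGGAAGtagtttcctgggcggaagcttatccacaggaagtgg
Rpl28, chr7:4792925-4792984, plus strand: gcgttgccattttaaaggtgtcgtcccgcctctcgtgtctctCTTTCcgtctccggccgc
Rpl3l, chr17:24727786-24727845, plus strand: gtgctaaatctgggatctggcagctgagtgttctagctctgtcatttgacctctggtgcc
Rpl10l, chr12:66284382-66284441, minus strand: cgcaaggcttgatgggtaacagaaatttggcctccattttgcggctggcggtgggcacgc

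The first 5 of these genes had a border within 40 kb in both TAD lists, as had Rpl3l, the paralog of Rpl3 known from striated muscle. Rpl37 had one in 2D only, Rpl28 in 3D only and Rpl10l, a paralog of Rpl10 known from the testis, in neither. RefSeq promoters, 250 bases before to 50 bases after a start, were at hand for 53 of the 72 members. Each of these members entered only with the promoter nearest to its GENCODE start. The values set beside them cover every promoter of the table, without a limit to autosomal protein-coding genes and with alternative starts of a gene included. CCGGAAG was found on either strand in 21 of these 53 promoters (39.6%), against 8.86% of all 32851 promoters of the table. AAGATGG was found on either strand in 8 of 53 (15.1%) against 6.34%. The pyrimidine motif CTTTC, searched within the window around the start, was found on the strand of the gene in 13 of 53 (24.5%) against 3.74%, and on either strand in 14 (26.4%) against 7.31%. The letters TATAAA were found on neither strand in the stretch from 50 to 11 bases before the start of any of the 53, against 3.15% of all promoters on either strand. The median GC content of the members' promoters was 56.7%, against 52.7%, and their median ratio of observed to expected CpG was 0.870, against 0.384. CCGGAAG was found in 14 of 35 promoters with a border within 40 kb in 2D (40.0%) and in 7 of 18 without one (38.9%). In 3D, these counts were 14 of 38 (36.8%) and 7 of 15 (46.7%). CTTTC was found on either strand in 7 of 35 promoters near a border and 7 of 18 others in 2D, and in 10 of 38 (26.3%) and 4 of 15 (26.7%) in 3D. AAGATGG was found in 5 of 35 (14.3%) and 3 of 18 (16.7%) in 2D, and in 6 of 38 (15.8%) and 2 of 15 (13.3%) in 3D. The differences were not tested. A match is a description of letters and not a binding site.

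The first comparison set the starts of the members against the TAD borders of each list. Every position where a TAD started or ended was taken as a border, on a grid of 40 kb bins, and a start was counted as near when a border lay within 40 kb, which is 1 bin. In 2D, 51 of the 72 members were near a border, 70.8% (95% Wilson interval, 59.5% to 80.1%), against 41.6% of all autosomal protein-coding genes. In 3D, 51 of 72 were near as well, the same 70.8%, against 38.9% of all genes, and 44 genes were common to both sets of 51. The intervals, which cover counting error only, lay above the value of all genes in both lists. Sequence within 40 kb of a border made up 18.9% of the autosomes in 2D and 17.3% in 3D, so that starts of all genes were also more often near borders than the sequence as a whole. Within 20 kb of a start, which on this grid says only that the nearest grid line was a border, the share was 42 of 72 (58.3%; 46.8% to 69.0%) in each list, against 23.0% of all genes in 2D and 21.9% in 3D. Within 80 kb lay a border of 61 of the 72 members in 2D (84.7%) and of 62 in 3D (86.1%), where all genes stood at 63.8% and 60.4%. Counting only borders at which 2 TADs met lowered the share to 38.9% in 2D and 40.3% in 3D, and that of all genes to 18.5% and 21.6%.

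**Figure D1:**
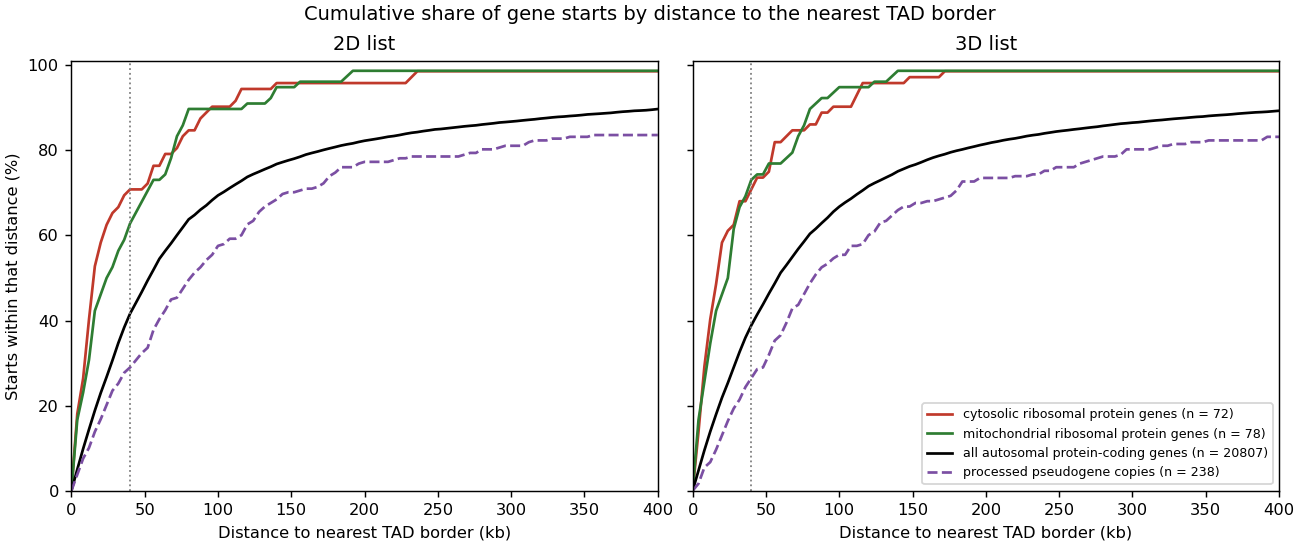
Share of gene starts (vertical axis, %) within each distance of the nearest TAD border (horizontal axis, kb) in the 2D list (left) and the 3D list (right), for 72 cytosolic and 78 mitochondrial ribosomal protein genes, 20807 autosomal protein-coding genes and 238 processed pseudogene copies. At 40 kb (dotted line) the cytosolic ribosomal protein genes stood at 70.8% in both lists, all genes at 41.6% and 38.9%, and the pseudogene copies at 29.0% and 26.5%.

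The median distance from a member's start to the nearest border was 14.5 kb in 2D (95% interval of the median, 11.5 to 23.6 kb) and 16.2 kb in 3D (11.5 to 24.7 kb). For all genes it was 52.9 kb (51.8 to 53.8 kb) and 58.1 kb (57.0 to 59.1 kb). With only borders at which 2 TADs met, the members' median became 95.8 kb (2D) and 75.6 kb (3D), against 193.4 and 147.6 kb for all genes. Members of the small subunit had a median of 13.9 kb (2D) and 14.2 kb (3D), and those of the large subunit 17.4 kb in both. A border lay near 23 of 29 small-subunit members in 2D (79.3%; 61.6% to 90.2%) and near 22 in 3D (75.9%; 57.9% to 87.8%). Near a border were 28 of the 43 large-subunit members in 2D (65.1%; 50.2% to 77.6%) and 29 in 3D (67.4%; 52.5% to 79.5%). In each list the intervals of the subunits overlapped, and their difference was not tested. The distance was identical in both lists for 47 of 72 members (65.3%), against 63.4% of all genes. It was shorter in 3D for 12 members (16.7%, against 16.5%) and shorter in 2D for 13 (18.1%, against 20.1%).

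**Figure D2:**
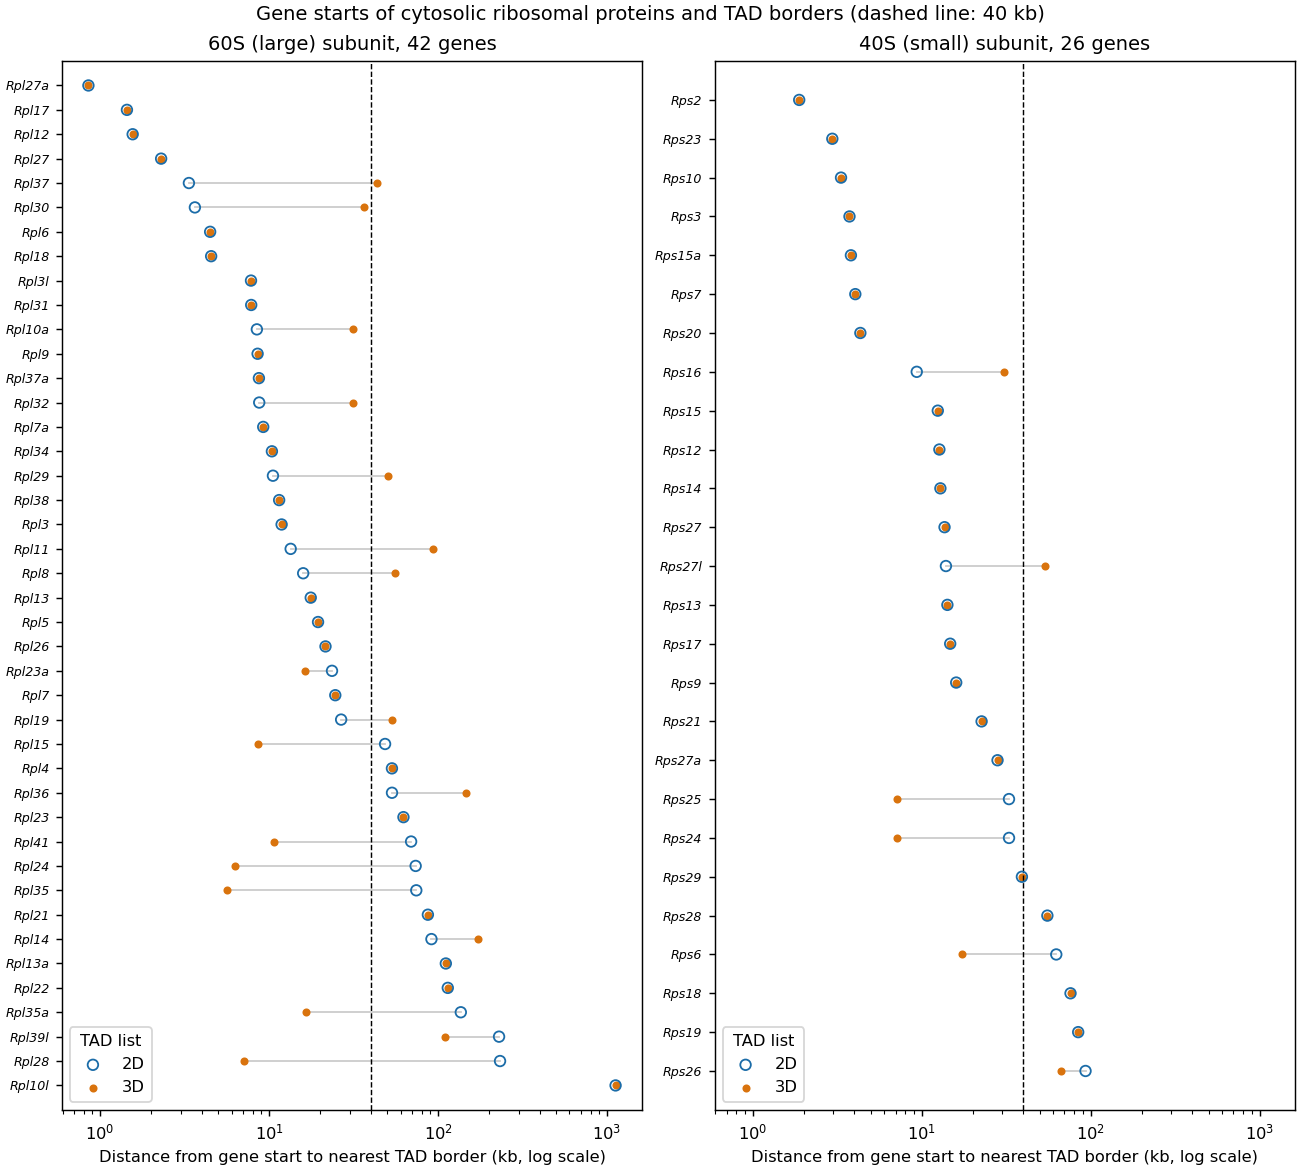
Distance from each gene start to the nearest TAD border (horizontal axis, kb, log scale) for 42 large-subunit genes (left) and 26 small-subunit genes (right), sorted by the 2D value, with open circles for 2D, filled circles for 3D and a grey line joining unequal values. Coinciding circles mark the 44 plotted genes with identical distances, and the 40 kb line (dashed) is crossed by 6 plotted genes near a border in 2D only and 7 in 3D only.

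The starts nearest to a border came from both subunits. The nearest was Rpl27a (ENSMUSG00000046364.14, chr7:109519147-109522367), a large-subunit gene, at 0.853 kb from a border in both lists. Rpl12, a protein at the base of the stalk where translation factors bind, started 1.56 kb from a border in both lists. Rps2 (chr17:24718116-24721929), which lines the path of the mRNA in the small subunit, started 1.88 kb away in both. Rpl17 started 1.44 kb away and Rpl27 2.30 kb away, again with equal values in 2D and 3D.

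The farthest member was Rpl10l, 1124 kb from a border in both lists, inside a TAD of 3960 kb that had the same ends in 2D and 3D (chr12:65160001-69120000). In 2D the far starts also included Rpl28 at 232.9 kb, Rpl39l, the testis paralog of Rpl39, at 229.8 kb, and Rpl35a at 136.5 kb. In 3D they included Rpl14 at 171.4 kb, Rpl36 at 146.6 kb and Rpl22 at 114.3 kb. The same genes had other values in the opposite list: Rpl28 stood at 7.13 kb and Rpl35a at 16.5 kb in 3D, and Rpl14 at 91.4 kb and Rpl36 at 53.4 kb in 2D. Rpl22 and Rpl10l had equal distances in both lists. The testis paralog Rpl10l thus lay farthest in both lists, and Rpl39l was among the farthest starts in 2D and stood at 109.8 kb in 3D. The muscle paralog Rpl3l lay at 7.82 kb in both lists.

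The second comparison asked whether a member had a border near its start in both cultures. It had in 44 of 72 cases (61.1%; 49.6% to 71.5%), against 32.5% of all genes. A border was near in 2D only for 7 members (9.72%, against 9.1% of all genes) and in 3D only for 7 (9.72%, against 6.35%). Neither list had one near 14 members (19.4%), where the value of all genes was 52.0%. Among the 51 members near a border in 2D, 44 were also near one in 3D (86.3%), against 78.1% of all genes. In the other direction the 44 were again 86.3% of 51, against 83.7%. With 1 list per culture, a difference between 2D and 3D at a single gene had no replicate error and was not tested.

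Among the 7 members near a border in 2D only, Rpl37 had a border at 3.36 kb in 2D and at 43.4 kb in 3D. Rpl29 stood at 10.5 and 50.5 kb, Rpl8, which lies close to the peptidyl transferase centre, at 15.9 and 55.9 kb, and Rps27l, a paralog of Rps27 known as a p53 target, at 13.9 and 53.9 kb. For these 4, the borders nearest to the start in the lists lay 40 kb apart, so that 1 bin decided the count. Rpl11, which with Rpl5 and 5S ribosomal RNA can bind Mdm2, had the widest gap, from 13.4 kb in 2D to 93.4 kb in 3D, and Rpl19 stood at 26.7 and 53.3 kb. The 2D border had a partner within 40 kb in the 3D list for 5 of the 7 members, Rpl11 and Rpl19 being the exceptions, against 32.5% of all genes near in 2D only.

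Among the 7 members near a border in 3D only, the borders lay farther apart. Rpl28 had the widest gap, from 232.9 kb in 2D to 7.13 kb in 3D, followed by Rpl35a from 136.5 to 16.5 kb. Rpl35 stood at 74.4 kb in 2D and 5.62 kb in 3D. Rpl24, mutated in the belly spot and tail mouse, stood at 73.7 and 6.28 kb. Rpl41, among the shortest ribosomal proteins, stood at 69.3 and 10.7 kb. Rps6, the small-subunit protein phosphorylated by S6 kinase, stood at 62.6 and 17.4 kb, and Rpl15 at 48.6 and 8.61 kb. For 6 of these 7 the nearest borders of the lists lay 80 kb or more apart, and only that of Rpl15 had a partner within 40 kb in the 2D list (14.3%, against 39.2% of all genes near in 3D only).

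The borders themselves were then compared between the lists. A border was counted as shared when the other list had one within 40 kb. The nearest border of a member was shared in 64 of 72 cases for the 2D list (88.9%; 79.6% to 94.3%), against 85.4% of all genes, and in 61 of 72 for the 3D list (84.7%; 74.7% to 91.2%), against 89.3%. Both intervals included the value of all genes. With only borders where 2 TADs met, the members' share in 2D fell below that of all genes. Among members near a border, 49 of 51 of the 2D borders were shared (96.1%; 86.8% to 98.9%), against 85.2% of all genes near one, and 45 of 51 of the 3D borders (88.2%), against 90.1%. For 37 of the 44 members near a border in both lists the border stood at the same position (84.1%, against 87.2% of all genes). For the other 7, Rpl10a, Rpl23a, Rpl30, Rpl32, Rps16, Rps24 and Rps25, it differed by 1 bin. Rps24 and Rps25, small-subunit proteins, were at 32.9 kb in 2D and at 7.13 and 7.14 kb in 3D, and Rpl30 was at 3.64 kb in 2D and 36.4 kb in 3D. The members' borders were few among all borders: 50 of 5681 autosomal borders in 2D (0.880%) and 50 of 5189 in 3D (0.964%) had a member within 40 kb.

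A border could separate 2 adjoining TADs or a TAD from sequence outside TADs. Of the members near a border, 28 of 51 had one where 2 TADs met in 2D (54.9%, against 44.4% of all genes near one) and 29 of 51 in 3D (56.9%, against 55.7%). The start of the member was the closest protein-coding start to that border in 29 of 51 cases in 2D (56.9%, against 47.7%) and in 25 of 51 in 3D (49.0%, against 47.3%). Transcription ran away from the border in 19 of 51 in 2D (37.3%, against 51.3%) and in 26 of 51 in 3D (51.0%, against 50.9%).

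The third comparison concerned the TADs that held the members. In 2D, 54 of 72 starts lay inside a TAD, against 77.3% of all genes, and in 3D 55 of 72 (76.4%, against 84.1%). Those inside a TAD in both lists numbered 47. Outside TADs in both lists were 10 starts (13.9%, against 12.2%), among them Rpl9, Rpl13a and Rpl35a of the large subunit, and Rps6, Rps7, Rps10, Rps18 and Rps29 of the small subunit. Being outside a TAD did not place a start far from a border. Rps10 lay at 3.33 kb, Rps7 at 4.05 kb and Rpl9 at 8.56 kb in both lists, whereas Rpl13a lay at 111.2 kb. Outside TADs in 2D only were 8 starts (11.1%, against 10.5%): Rpl23a, Rpl24, Rpl28, Rpl30, Rpl32, Rpl35, Rps24 and Rps25. Outside in 3D only were 7 (9.72%; 4.79% to 18.7%, against 3.73%): Rpl15, Rpl27a, Rpl37, Rpl37a, Rps3, Rps15 and Rps16. In the 2D list, Rpl27a and Rpl37 lay in TADs of 3160 and 1960 kb, and Rpl15, Rpl37a, Rps3 and Rps15 in TADs of 120 kb.

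Taken over members, the TAD around the start had a median size of 200 kb in 2D (160 to 240 kb), against 320 kb over all genes, and of 280 kb in 3D (200 to 320 kb), against 320 kb. The smallest size in the lists, 120 kb, was that of the TAD around 15 of the 54 members in 2D (27.8%; 17.6% to 40.9%, against 14.6%) and of 5 of 55 in 3D (9.09%, against 10.6%). TADs over 600 kb held 10 of 54 members in 2D (18.5%, against 32.1%) and 8 of 55 in 3D (14.5%, against 30.2%). Of the 47 members inside a TAD in both lists, 22 had TADs of equal size (46.8%, against 49.5%), 18 had a larger one in 3D (38.3%, against 30.7%) and 7 a smaller one (14.9%, against 19.8%). The ends were identical for 21 of them (44.7%, against 48.5%). A TAD of the other list matched at both ends within 40 kb for 30 of the 54 members inside a TAD in 2D (55.6%, against 67.2%) and for 34 of the 55 in 3D (61.8%, against 62.2%).

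The largest difference in size was at Rps27a, which encodes a fusion of ubiquitin and a small-subunit protein. Its TAD ran over 200 kb in 2D (chr11:29520001-29720000) and over 1360 kb in 3D (chr11:29520001-30880000), with the border at the start side of the TAD, 28.1 kb from Rps27a, in common. The TAD of Rpl17 measured 960 kb (2D) and 200 kb (3D), with a common border at 1.44 kb. The TAD of Rps27l measured 120 and 600 kb. That of Rpl14 measured 680 and 1040 kb, and that of Rpl36 120 and 480 kb. Hence 4 of these 5 TADs were larger in 3D, and the border near the start was the same in both lists for Rps27a and Rpl17 only.

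**Figure D3:**
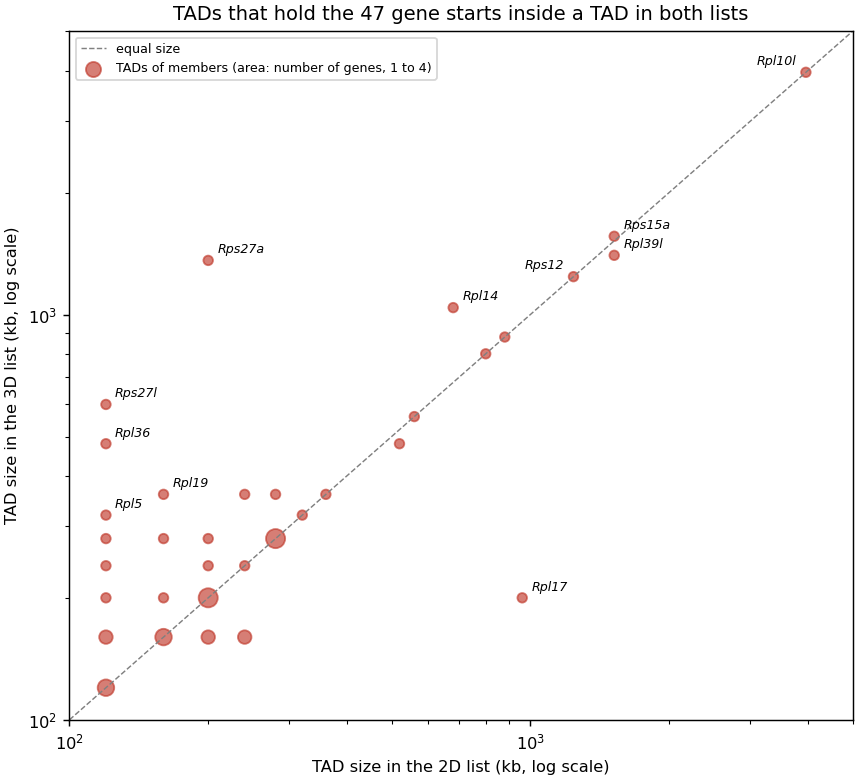
Size of the TAD that holds a member in the 2D list (horizontal axis, kb, log scale) and in the 3D list (vertical axis, kb, log scale) for the 47 members inside a TAD in both lists; point area gives the number of genes and the dashed line marks equal size. Points on the line stand for 22 members, those above it for 18 and those below it for 7, with Rps27a (200 and 1360 kb) and Rps27l (120 and 600 kb) among those well above it and Rpl17 (960 and 200 kb) among those below.

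The 54 members inside TADs in 2D lay in 53 of the 4221 autosomal TADs of that list, and the 55 of 3D in 54 of 4094. The same count was not made for other sets of genes of this size, so it shows nothing particular to the members. In 2D, Rpl41 and Rps26, a small-subunit protein mutated in Diamond-Blackfan anaemia, lay in the same TAD (chr10:128480001-128720000). In 3D a border at position 128560000 fell between these genes, and it lay 10.7 kb from Rpl41 and 66.7 kb from Rps26. Rpl19 and Rpl23 shared a TAD in 3D (chr11:97720001-98080000), and in 2D a border at position 98000000 fell between them. At chromosome 17, Rps2 and Rpl3l had the same nearest border in both lists, at position 24720000, with Rps2 starting before it and Rpl3l after it. The RefSeq start of Rps2 lay 1947 bases from the GENCODE start and on the other side of that position. Rps18 and Rps28 also shared their nearest border (chromosome 17, position 33880000), but neither was near it. Members that share a border are not independent of each other in the counts above. Chromosome 7 held 13 members, the largest number, of which 9 were near a border in each list, against 35.0% (2D) and 34.6% (3D) of all genes of that chromosome. Chromosomes 11 and 17 held 7 each.

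Paralogs encoding alternative forms of a protein did not share one position. Rpl3, which reaches toward the peptidyl transferase centre, was at 11.9 kb from a border and its muscle paralog Rpl3l at 7.82 kb, each the same in both lists. Rps27 was at 13.7 kb in both lists and Rps27l at 13.9 kb in 2D and 53.9 kb in 3D. Rpl10a, which is a different protein from Rpl10 despite its name, was at 8.47 kb in 2D and 31.5 kb in 3D. Rpl10l was at 1124 kb.

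The naming rule did not use gene length or surroundings. The members' median length was 3.33 kb, against 17.6 kb for all genes. The median number of other protein-coding starts within 200 kb was 8.5 (95% interval, 7 to 11), an interval that reached the 7.0 of all genes. To compare genes with like surroundings, the share near a border was compared within classes of this number. With 0 to 3 other starts, 8 of 13 members were near a border in 2D (61.5%, against 33.8% of all genes of the class) and 10 of 13 in 3D (76.9%, against 31.5%). With 4 to 7, the counts were 13 of 17 (76.5%, against 47.9%) and 14 of 17 (82.4%, against 44.9%). With 8 to 12, they were 14 of 17 (82.4%, against 43.5%) and 13 of 17 (76.5%, against 40.5%). With 13 or more, they were 16 of 25 (64.0%; 44.5% to 79.8%, against 41.0%) and 14 of 25 (56.0%; 37.1% to 73.3%, against 38.3%). The members' share was above that of all genes in each class and list, and in the most gene-rich class of 3D its interval included the value of all genes. Among genes of at most 10 kb, a limit set after the data were seen, 47 of 68 members were near a border in 2D (69.1%, against 38.6%) and 48 of 68 in 3D (70.6%, against 36.1%).

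**Figure D4:**
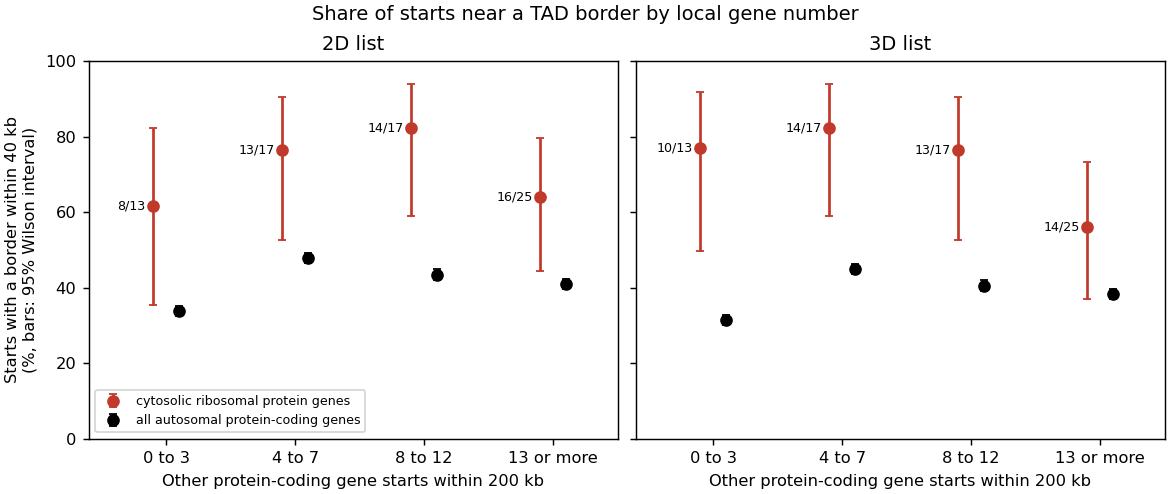
Share of gene starts with a TAD border within 40 kb (vertical axis, %) by the number of other protein-coding starts within 200 kb (horizontal axis) in the 2D list (left) and the 3D list (right), for members (red, with counts) and all autosomal protein-coding genes (black); bars are 95% Wilson intervals. Members stood above all genes in every class, from 56.0% against 38.3% (13 or more, 3D) to 76.9% against 31.5% (0 to 3, 3D).

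A snoRNA gene lay inside 25 of the 72 members on the same strand (34.7%), against 244 of 20807 genes (1.17%). Rpl4 held 5 and Rpl13a held 4, Snord32a, Snord33, Snord34 and Snord35a, which guide methylation of ribosomal RNA. Of the 25 hosts, 20 were near a border in 2D (95% Wilson interval, 60.9% to 91.1%) and 19 in 3D (76.0%; 56.6% to 88.5%). Of the 47 members without a snoRNA, 31 were near in 2D (66.0%; 51.7% to 77.8%) and 32 in 3D (68.1%; 53.8% to 79.6%), and the intervals overlapped. Hosts among all genes stood at 54.1% and 50.0%. All 7 members near a border in 3D only were without a snoRNA, as were 6 of the 7 near in 2D only. For comparison, 47 of all 72 members and 20563 of all 20807 genes were without one, and the difference was not tested. A head-to-head partner within 1 kb was found for 8 members (11.1%, against 6.97% of all genes). These were Rpl4 with Zwilch, Rpl7a with Med22, Rpl9 with Lias, Rpl35a with Iqcg, Rps2 with Rnf151, Rps24 with Polr3a, Rps27 with Rab13 and Rps28 with Ndufa7. The count used GENCODE starts. The RefSeq starts of Rps2 and Rps24 lay 1947 and 3553 bases downstream of these, so both pairs depend on the start used.

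The same count was made for other genes of translation and ribosome production, listed by name. Of 78 mitochondrial ribosomal protein genes, whose products form the ribosome of the mitochondrion, 49 were near a border in 2D (62.8%; 51.7% to 72.7%) and 57 in 3D (73.1%; 62.3% to 81.7%). Their median distance was 25.4 kb (2D) and 24.4 kb (3D), and within 20 kb there were 36 of 78 (46.2%) in each list. Ribosome assembly factors gave 38 of 53 (71.7%) in 2D and 36 of 53 (67.9%) in 3D. Translation factors gave 23 of 36 in each list (63.9%; 47.6% to 77.5%). A list of regulators of ribosome production (RNA polymerase I subunits and transcription factors, mTOR pathway genes and Myc) gave 14 of 23 (60.9%) and 11 of 23 (47.8%). The intervals of these lists overlapped those of the cytosolic ribosomal protein genes, and the differences were not tested. Of 10 ribosomal protein genes that the naming rule does not take, 6 were near a border in 2D and 7 in 3D. They included the stalk proteins Rplp1 at 5.46 kb and Rplp2 at 32.6 kb in both lists, Rpsa at 7.69 kb and Rplp0 at 79.5 kb in both lists.

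Processed pseudogenes of the members, which are inserted copies of their mRNAs without the promoter, served as a list of like sequence at other positions; they were added after the values of the members were known. Of 238 such copies, 69 were near a border in 2D (29.0%; 23.6% to 35.1%) and 63 in 3D (26.5%; 21.3% to 32.4%). Their median distances were 80.8 and 82.8 kb. The interval of the copies lay below that of the members and below the value of all genes in each list. It lay above the share of autosomal sequence within 40 kb of a border, 18.9% in 2D and 17.3% in 3D.

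**Figure D5:**
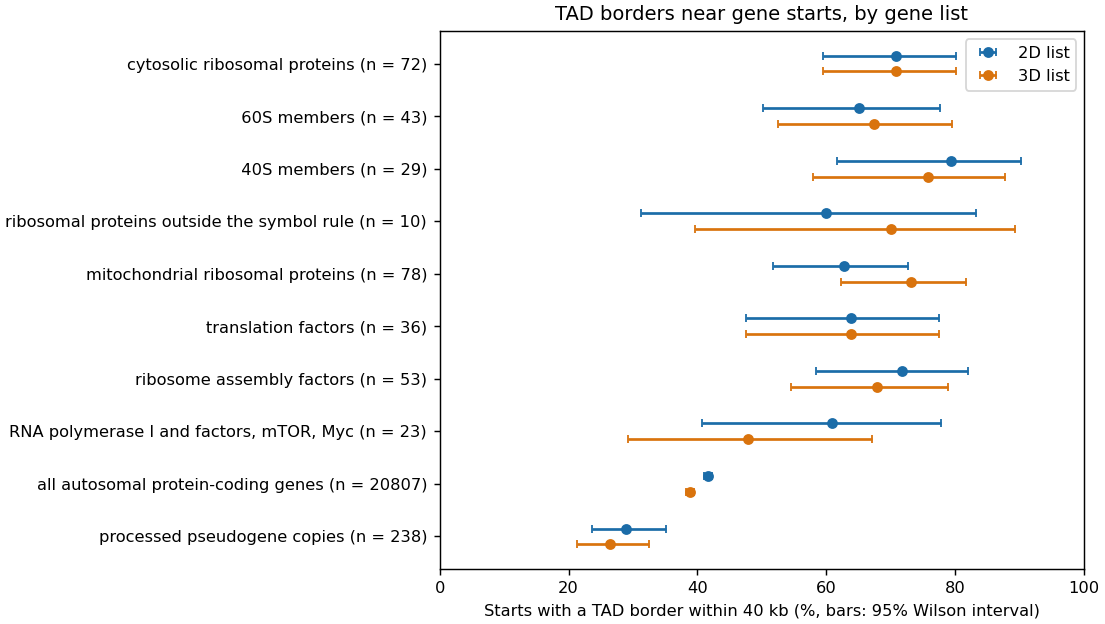
Share of gene starts with a TAD border within 40 kb (horizontal axis, %) for the cytosolic ribosomal protein genes, their subunits, other lists of translation and ribosome production, all autosomal protein-coding genes and processed pseudogene copies, with blue for 2D and orange for 3D; bars are 95% Wilson intervals. The cytosolic ribosomal protein genes stood at 70.8% in both lists, the mitochondrial ones at 62.8% and 73.1%, and the pseudogene copies had the lowest shares, 29.0% and 26.5%.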

How the data were processed

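In situ Hi-C had been made from 4 libraries, 2 each of 2D- and 3D-cultured AML12 cells. The authors deposited values of a kind other than counts: their lists give the start and end of each TAD in base pairs of mm10, in 1 list per culture. The submitters' processing notes name Bowtie 2 (version 2.2.9). The authors combined replicates, binned contacts at 40 kb, equalized the contacts of each chromosome between cultures and called TADs with Armatus at a gamma of 0.8, so a border is placed to no better than 1 bin. The lists hold no read counts, and the depth behind a border is unknown. All positions in the 2 lists were multiples of 40 kb and 0 lay past a chromosome end of GRCm38.

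Distances run from the GENCODE (release M21) gene start to the nearest distinct TAD start or end. Sequences and promoters are from RefSeq (GRCm38.p6), which held 53 of the 72 members. Shares carry 95% Wilson intervals for counting error, and medians carry 95% order-statistic intervals. With 1 list per culture no test and no p-value was computed, since genes are not replicates of a culture. Members, gene lists and comparisons were chosen with earlier results of these data known. Genes were named by rule: the 5 nearest and 5 farthest starts of each list, members near a border in 1 list only, members outside TADs, members sharing a TAD, the 5 largest differences in TAD size, paralog pairs and, as values outside the comparison, members on chromosome X. Genes named beside these, for snoRNAs, partners, shared borders or roles, were chosen after their values were seen. Some genes that enter the counts are not reported here by name and are left out of the plot of single members. Of the rule's genes, Rps4l is not protein-coding in this release. The calculations used scipy 1.17.1, pandas 2.3.3, numpy 2.4.6 and matplotlib 3.10.9 under Python 3.11.15, and 6 of 6 measures returned known values on simulated lists. The simulated TADs all abutted, and their borders moved by at most 1 bin. Unshared borders, unmatched TADs and starts outside TADs were therefore not simulated. Alternatives were other distances, border definitions, TAD sizes, gene ends and gene-rich or short genes. Contact matrices, compartments and RNA-seq were not analysed here.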

Additional observations from a re-analysis of the deposited data

How the results depend on the processing

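The lists used here pool the replicates, so they give no spread between cultures of one kind, and depth could not be weighed because the lists hold no read counts. No paired analysis was possible because TADs had been called on combined replicates, and for the same reason no replicate could be left out in turn. Over 64 recalculations of the comparisons' values, 8 of them chosen after seeing the data (genes of at most 10 kb, and chromosome 7 left out), every share of members near a border stayed above that of all genes, by 18.6 to 36.5 percentage points. Each share near a border entered the 64 both as a share and as its difference from all genes, and so did the 8. A change of size beyond the interval was assessed only for the values other than these differences. It occurred in 22 of those, and the cause was not tested. The share of members near a border was 58.3% in both lists within 20 kb, 84.7% (2D) and 86.1% (3D) within 80 kb, and 94.4% and 95.8% within 120 kb (all genes 73.8% and 71.6%). It was 38.9% (2D; all genes 18.5%) and 40.3% (3D; 21.6%) when only borders where 2 TADs meet were counted, 52.8% in 2D (27.9%) from TADs of at least 200 kb, and 59.4% in 3D (38.5%) among genes with at least 10 other starts within 200 kb. With borders where 2 TADs meet, the median distance reached 95.8 kb (2D; all genes 193.4 kb) and 75.6 kb (3D; 147.6 kb). Nearest borders were shared for 69.4% (2D) and 66.7% (3D) of members at the same position (all genes 68.3% and 71.0%), for 95.8% in both within 80 kb (91.7% and 94.8%), and for 65.3% and 59.7% where 2 TADs meet (77.3% and 65.5%). Members in a TAD found in both lists were 38.9% (2D) and 38.2% (3D) with identical ends (all genes 46.2% and 42.5%), and 72.2% and 78.2% with ends within 80 kb (76.7% and 72.7%). Of 432 recalculated distances of single members, 347 stayed within 40 kb of the value above, and 85 did not, 62 of them with borders where 2 TADs meet and 23 with TADs of at least 200 kb.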

Other observations

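Chromosome X holds 4 more genes of the naming rule, which were kept out of the counts over autosomes. Rpl10, a large-subunit protein added late in ribosome assembly, started 30.8 kb from a border in both lists, inside a TAD of 200 kb in each. Rps4x, a small-subunit protein, started 10.6 kb from a border in both lists and lay outside TADs. Rpl39, the parent of the autosomal paralog Rpl39l, started 314.6 kb from a border in 2D and 5.40 kb from one in 3D, outside TADs in both. Rpl36a started 54.3 kb from a border in 2D and 94.3 kb in 3D. Thus the X-linked Rpl39 was near a border in 3D only, whereas Rpl39l was near one in neither list, at 229.8 and 109.8 kb.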
